A study of Mus musculus with 8 samples.

Results

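The genes described here encode the respiratory chain, the series of enzyme complexes in the inner mitochondrial membrane that passes electrons to oxygen and pumps protons. Complex I oxidises NADH, complex II (succinate dehydrogenase) oxidises succinate, complex III hands electrons on to cytochrome c, and complex IV (cytochrome c oxidase) passes them to oxygen, while ATP synthase uses the proton gradient. Most subunits are encoded in the nucleus, and several complex IV subunits have a second isoform that is known from muscle, lung or testis. Midbrain dopaminergic neurons are known to be sensitive to inhibitors of complex I. All genes whose symbol on the array begins with Nduf, Uqcr, Sdha, Sdhb, Sdhc, Sdhd, Cox4i, Cox5, Cox6, Cox7 or Cox8 were taken, which gave 76 of the 19938 genes with a probe set of their own. By symbol, 36 belonged to complex I (6 core and 30 accessory subunits), 4 to complex II, 8 to complex III and 17 to complex IV. The symbols also took in 7 assembly factors of complex I (Ndufaf genes) and 4 of complex II (Sdhaf genes), which help to build the enzymes but are not part of them. *Ndufa4* and *Ndufa4l2* were kept with complex I by symbol, although NDUFA4 is now counted with complex IV. The 76 genes had 89 probe sets, and where a gene had several, the brightest on average over all 8 arrays stands for it. A further 6 probe sets, which share the symbols of *Cox7c*, *Ndufs5* and *Ndufb4* with a near copy, were left out.

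The arrays measured RNA from 4 groups with 2 arrays each. Mesodiencephalic dopaminergic (mdDA) neurons were sorted by fluorescence for GFP from ventral midbrain of *Pitx3*GFP/+ embryos at E14.5 and at E13.5, on a mixed C57BL/6 x 129/Ola background. The mdDA domain and, as its control, the lateral domain were laser-microdissected from sections of E12.5 BAT-gal embryos of mixed B6D2F1 background, each as a pool from 5 embryos. GFP in the *Pitx3*GFP/+ line marks cells in which *Pitx3*, a transcription factor of mdDA neurons, is active, and 1 *Pitx3* allele carries GFP. BAT-gal is a b-galactosidase reporter that responds to WNT/b-catenin signaling, and the dissected tissue had been fixed and stained before cutting. The labels call the arrays of a group technical replicates, so the p-values do not take in how embryos differ from each other. Stage, strain and isolation all differ between sorted and dissected samples, so these cannot be told apart in any comparison of the sorted neurons with the mdDA domain. In the mdDA domain, a mixture of cells, fewer cells of a type and less RNA per cell cannot be told apart either.

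The promoters of 62 of the 76 genes were in the RefSeq table (mouse build GRCm38.p6, 250 bases before to 50 after the start of the gene, 64 promoters in all), and those of 5 genes, chosen because they hold a match to a motif searched, are shown. A pair of motifs known from respiratory chain promoters was searched on both strands, the core of the NRF1 motif, GCGCATGCG, and the ETS motif bound by GABPA, CCGGAAG. The NRF1 letters read nearly the same on both strands, so a forward and a reverse match often overlap. The NRF1 core was found in 7 of the 64 promoters (10.9%) and in 1.75% of all 32851 promoters of the table, and the GABPA motif in 15 (23.4%) and in 8.86% of all promoters. Capitals mark these motifs on either strand, and each stretch runs 5′ to 3′ along the gene from 180 bases before its start to 10 bases into it. The first 4 genes were higher in sorted neurons than in the mdDA domain and *Cox6a1*, which was not, is shown beside them:
*Uqcr11* (chr10:80406812-80407001, minus strand): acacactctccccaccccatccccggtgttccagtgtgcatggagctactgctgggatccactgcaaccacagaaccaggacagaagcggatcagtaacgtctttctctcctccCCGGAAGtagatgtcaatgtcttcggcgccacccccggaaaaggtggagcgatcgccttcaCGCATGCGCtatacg
*Uqcrh* (chr4:116075061-116075250, minus strand): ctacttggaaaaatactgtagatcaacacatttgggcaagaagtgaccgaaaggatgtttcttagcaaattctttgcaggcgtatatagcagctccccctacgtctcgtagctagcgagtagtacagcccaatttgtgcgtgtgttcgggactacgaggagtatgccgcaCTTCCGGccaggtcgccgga
*Sdhd* (chr9:50603840-50604029, minus strand): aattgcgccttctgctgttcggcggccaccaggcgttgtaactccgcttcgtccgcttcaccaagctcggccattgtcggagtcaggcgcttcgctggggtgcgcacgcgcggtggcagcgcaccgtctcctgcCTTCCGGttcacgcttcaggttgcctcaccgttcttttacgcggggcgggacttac
*Ndufa11* (chr17:56717582-56717771, plus strand): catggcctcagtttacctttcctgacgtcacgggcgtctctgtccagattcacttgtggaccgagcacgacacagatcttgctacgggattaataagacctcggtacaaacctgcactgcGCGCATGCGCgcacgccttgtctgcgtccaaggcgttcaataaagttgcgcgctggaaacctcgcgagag
*Cox6a1* (chr5:115348949-115349138, minus strand): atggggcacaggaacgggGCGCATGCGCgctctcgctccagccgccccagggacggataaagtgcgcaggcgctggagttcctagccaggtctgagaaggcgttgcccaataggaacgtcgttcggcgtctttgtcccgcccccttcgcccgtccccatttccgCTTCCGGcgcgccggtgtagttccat
*Uqcr11* and *Cox6a1* each carried both motifs. Of the 30 genes with a promoter that were higher in sorted neurons, 3 held the NRF1 core and 6 the GABPA motif, and of the 31 that did not pass the test in either direction, 4 and 9 did. A match is a description of these letters and not a measured binding site.

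Values are log2 levels as the authors deposited them, with array medians of 4.39 on the sorted arrays and between 4.57 and 4.60 on the dissected ones. The sorted arrays were also spread more widely. Their standard deviation over probe sets was between 2.03 and 2.05, against 1.90 and 1.94 on the dissected arrays. Arrays of a group correlated across probe sets with r between 0.966 and 0.983. *Th*, the rate-limiting enzyme of dopamine synthesis, averaged 10.54 in E14.5 neurons, 10.57 in E13.5 neurons, 9.20 in the mdDA domain but 5.34 in the lateral domain. In the limma test of sorted neurons against the mdDA domain, described below, 8.53% of all probe sets were higher and 9.84% lower. Of 11 mdDA markers, 7 were higher in sorted neurons than in the mdDA domain. So were 4 of 8 lateral and GABAergic and 3 of 8 pan-neuronal markers, with 1 pan-neuronal marker lower. All 7 markers of progenitors and cell division measured, 4 of 4 erythroid, 4 of 6 endothelial and 5 of 9 pericyte markers were lower there by the same limma test. None of 6 microglial and 5 fibroblast and meningeal markers was called, 3 and 0 of them having an unadjusted p below 0.05.

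Across the 4 groups, the respiratory chain genes lay higher in sorted neurons than in dissected tissue. The median level of the 76 genes was 8.44 and 8.46 on the E14.5 arrays, 8.29 on both E13.5 arrays, 7.75 and 7.94 on the mdDA arrays and 7.82 and 7.75 on the lateral arrays. All 4 sorted arrays thus lay above all 4 dissected arrays, while the arrays of the mdDA and lateral domains overlapped. The same order held gene by gene for 44 of the 76 genes (57.9%), against 10.6% of all 35556 probe sets and 33.7% of the 5788 probe sets with a mean level of at least 7. The reverse order was found for 2 genes, *Cox6b2* and *Sdhaf3*, against 14.8% of all probe sets.

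**Figure D1:**
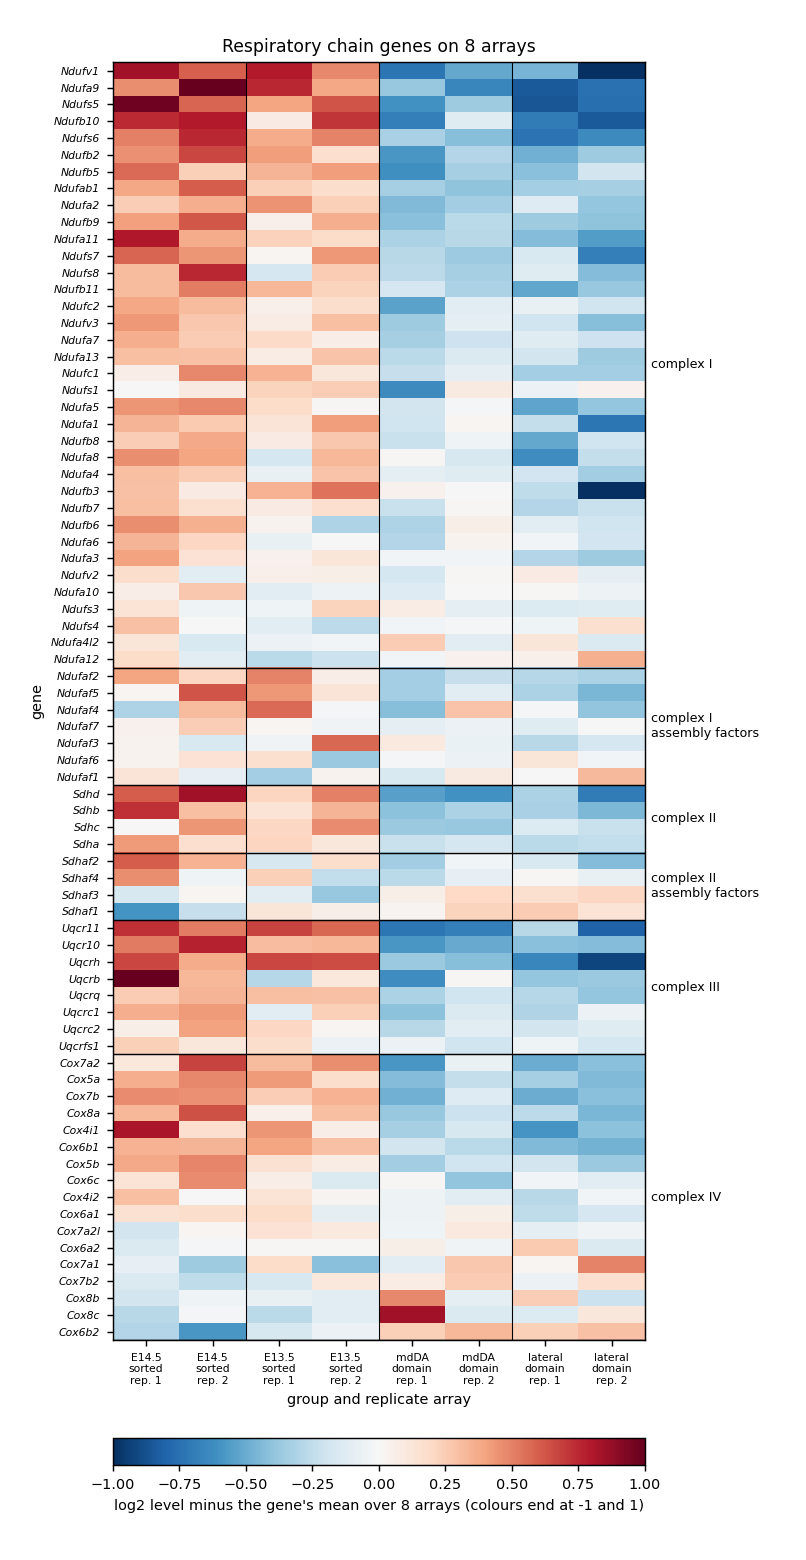
Level of each of the 76 genes (rows, by complex, ordered within a complex by the difference between sorted neurons and the mdDA domain) on each of the 8 arrays (columns, by group), as log2 level minus the gene's mean over the arrays. Red is above and blue below that mean. In complex II, in most of complex III and in the upper rows of complex I and IV the 4 sorted arrays are mostly red and the 4 dissected arrays mostly blue, and of the 11 assembly factors *Ndufaf2* and *Ndufaf5* show the same split. The last rows of complex IV do not.

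By complex, the medians over subunits showed the same order in complex I, II and III. For complex I the median was 8.66 and 8.61 on the E14.5 arrays, 8.33 and 8.56 on the E13.5 arrays, 7.93 and 8.11 on the mdDA arrays and 8.08 and 8.01 on the lateral arrays. For complex II it was 8.43 and 8.12 in E14.5 neurons, 8.06 and 8.11 in E13.5 neurons, 7.56 and 7.64 on the mdDA arrays and 7.58 and 7.53 on the lateral arrays. For complex III it was 8.63 and 8.50 in E14.5 neurons, 8.53 and 8.44 in E13.5 neurons, 7.95 and 8.002 on the mdDA arrays and 7.97 and 7.86 on the lateral arrays. In each of these complexes no sorted array fell into the range of the dissected arrays. The medians of complex IV, 8.59 and 9.16 in E14.5 neurons, 8.80 and 8.95 in E13.5 neurons, 8.43 and 8.58 on the mdDA arrays and 8.38 and 8.44 on the lateral arrays, were separated by only 0.01 at the nearest arrays. The middle gene was *Cox7a2* on the sorted arrays but *Cox7a2l* on the dissected ones, so this gap lies between different genes. *Cox7a2* itself was separated by 0.17.

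To ask how the genes differed between sorted mdDA neurons and the mdDA domain, the average of the E14.5 and E13.5 groups was set against the domain by limma over the 8 arrays. A gene was called higher or lower where its p, adjusted by Benjamini-Hochberg over all probe sets, was below 0.10. Of the 76 genes, 34 were higher in sorted neurons (44.7%), 1 was lower and 41 were not called. In the same test 8.53% of all probe sets were higher and 9.84% lower. Because bright probe sets were called higher more often (27.4% of those with a mean level of at least 7, 9.9% lower), the 53 respiratory chain genes of that level were counted apart, and 29 of them (54.7%) were higher and 0 lower. The median log2 difference was 0.43 over the 76 genes and 0.55 over those 53, against -0.08 over all probe sets and 0.17 over the bright ones. In the fitted values, 64 of the 76 genes were above 0, against 39.8% of all probe sets. Of the 53 bright genes 50 were above 0, against 65.1% of bright probe sets. A split of the sorted group gave a median of 0.52 for E14.5 and 0.36 for E13.5 neurons against the mdDA domain, with a higher mean than the domain in 65 of the 76 genes at E14.5 and in 61 at E13.5. The median of all probe sets was -0.08 at either stage. Beside this result, the summed log2 level of the 7 progenitor and cell division markers ranged between 33.8 and 35.2 on the E14.5 arrays and 34.4 and 34.5 on the E13.5 arrays, against 44.8 and 45.0 on the mdDA arrays. The sum of the 4 erythroid markers lay between 16.4 and 17.0 on sorted arrays, against 32.5 and 32.6 in the mdDA domain. Pericyte markers (9 genes) summed to between 35.8 and 38.0 on sorted arrays, against 42.0 and 42.1 in the mdDA domain, and endothelial markers (6 genes) to between 23.2 and 23.7, against 26.9 and 28.3. Conversely, the 11 mdDA markers summed to between 97.5 and 98.4 on sorted arrays, against 83.3 and 83.9 in the mdDA domain. The 8 lateral and GABAergic markers were also higher, between 39.0 and 44.2 on sorted arrays, against 34.8 and 37.4. Pan-neuronal markers (8 genes) summed to between 76.8 and 77.7, against 75.6 and 76.3. Microglial markers (6 genes) overlapped, between 24.7 and 28.6 against 27.6 and 27.7. Fibroblast and meningeal markers (5 genes) lay between 20.9 and 21.1, against 21.1 and 22.4. The part of these cells in the differences of the respiratory chain genes was not tested.

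**Figure D2:**
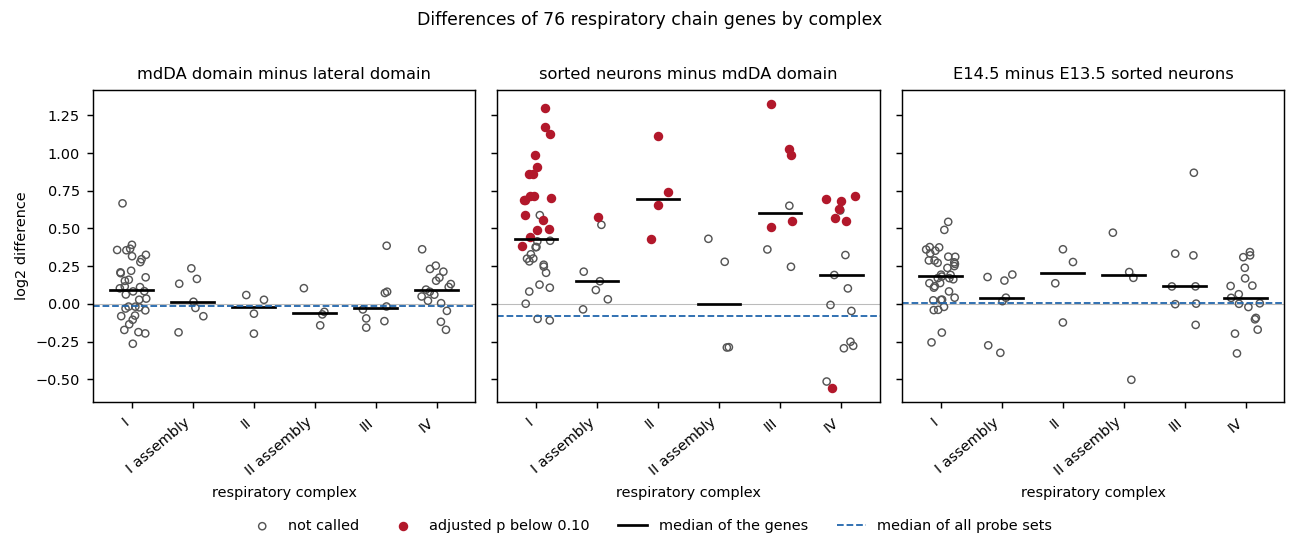
Log2 difference of each of the 76 genes in the 3 comparisons (panels), by complex. Filled points passed an adjusted p below 0.10, open points did not, black lines are the medians of the genes and the dashed line is the median of all probe sets. Only the middle panel, sorted neurons against the mdDA domain, has filled points, 34 above and 1 below 0.

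In complex I, 18 of 36 genes were higher in sorted neurons and none was lower, with a median difference of 0.43. The largest difference was that of *Ndufv1*, the core subunit that binds NADH and FMN. Its level was 7.67 and 7.43 in E14.5 neurons, 7.63 and 7.31 in E13.5 neurons, 6.10 and 6.32 on the mdDA arrays and 6.37 and 5.83 on the lateral arrays. Sorted and dissected arrays of *Ndufv1* were separated by 0.95, and the difference from the mdDA domain was 1.30 ± 0.19 (SE), adjusted p = 0.0123 (limma). *Ndufa9*, an accessory subunit of the matrix arm, had 7.19 and 7.75 in E14.5 neurons, 7.49 and 7.11 in E13.5 neurons, 6.35 and 6.08 on the mdDA arrays and 5.89 and 5.98 on the lateral arrays. All sorted arrays of *Ndufa9* lay above all dissected ones, with a limma difference of 1.17 ± 0.20 (SE), adjusted p = 0.018. For *Ndufs5*, an accessory subunit on the side of the intermembrane space, the levels were 10.75 and 10.36 in E14.5 neurons, 10.17 and 10.41 in E13.5 neurons, 9.17 and 9.42 on the mdDA arrays and 8.92 and 9.02 on the lateral arrays. *Ndufs5* also differed without overlap, by 1.13 ± 0.16 (SE), adjusted p = 0.0106 (limma). Without mdDA replicate 2, *Ndufa9* was no longer called.

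Also higher in complex I were *Ndufs6*, with 8.12 and 8.37 in E14.5 neurons, 7.99 and 8.11 in E13.5 neurons, 7.29 and 7.20 on the mdDA arrays and 6.88 and 6.98 on the lateral arrays, and *Ndufab1*, the mitochondrial acyl carrier protein, with 9.37 and 9.59 in E14.5 neurons, 9.22 and 9.16 in E13.5 neurons, 8.65 and 8.58 on the mdDA arrays and 8.64 and 8.65 on the lateral arrays. The mdDA arrays of *Ndufs6* lay above the lateral arrays but below every sorted array, and those of *Ndufab1* overlapped with the lateral ones. Their limma differences from the mdDA domain were 0.91 ± 0.12 (SE), adjusted p = 0.00913, for *Ndufs6* and 0.72 ± 0.11 (SE), adjusted p = 0.0133, for *Ndufab1*. Of the 6 core subunits, which carry the redox centres or border on them, only *Ndufv1* and *Ndufs7*, an iron-sulphur subunit, were called. *Ndufs7* had 7.69 and 7.55 in E14.5 neurons, 7.12 and 7.54 in E13.5 neurons, 6.83 and 6.75 on the mdDA arrays and 6.95 and 6.42 on the lateral arrays, and its limma difference was 0.69 ± 0.19 (SE), adjusted p = 0.0694. Among the 4 core subunits that were not called, *Ndufs8* differed by 0.59 ± 0.19 (SE), adjusted p = 0.101 (limma), *Ndufs1* by 0.41, *Ndufv2* by 0.13 and *Ndufs3* by 0.08. The other called accessory subunits, 12 in all, had differences between 0.38 (*Ndufa5*) and 0.99 (*Ndufb10*). Values below 0 in complex I were those of *Ndufa12*, -0.11, and *Ndufa4l2*, -0.10, neither of them called.

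The assembly factors gave 1 call, in complex I, where the share higher was 14.3% against 8.53% of all probe sets. Of 7 complex I assembly factors only *Ndufaf2*, which stands in the place of NDUFA12 while the enzyme is built, was higher, with 7.28 and 7.09 in E14.5 neurons, 7.38 and 6.95 in E13.5 neurons, 6.54 and 6.65 on the mdDA arrays and 6.60 and 6.57 on the lateral arrays. Its arrays did not overlap between sorted and dissected samples and the limma difference was 0.58 ± 0.15 (SE), adjusted p = 0.0575. The median over the 7 factors was 0.15. None of the 4 complex II assembly factors was called by limma, 1 having an unadjusted p below 0.05, and their median was 0.00, with *Sdhaf2* at 0.43 and *Sdhaf1* at -0.29. Most of these factors had a mean level below 7, where calls were rarer. Of the 23 respiratory chain genes below that level 5 were higher (21.7%), against 54.7% of the 53 genes at or above it. Whether assembly factors and subunits differed from each other, or would at equal level, was not tested.

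All 4 subunits of complex II were higher in sorted neurons, with a median difference of 0.70. *Sdhd*, a membrane anchor, had 7.38 and 7.61 in E14.5 neurons, 6.99 and 7.28 in E13.5 neurons, 6.23 and 6.17 on the mdDA arrays and 6.46 and 6.07 on the lateral arrays. The lowest sorted array of *Sdhd* was 0.53 above the highest dissected array, and the difference from the mdDA domain was 1.12 ± 0.16 (SE), adjusted p = 0.0113 (limma). *Sdhb*, the iron-sulphur subunit, was at 9.03 and 8.60 in E14.5 neurons, 8.44 and 8.64 in E13.5 neurons, 7.89 and 7.99 on the mdDA arrays and 7.97 and 7.85 on the lateral arrays. Again no sorted array of *Sdhb* fell below a dissected one, and the limma difference was 0.74 ± 0.15 (SE), adjusted p = 0.0305. The other anchor, *Sdhc*, had 8.97 and 9.41 in E14.5 neurons, 9.18 and 9.45 in E13.5 neurons, 8.60 and 8.59 on the mdDA arrays and 8.84 and 8.75 on the lateral arrays. Its sorted arrays were the 4 highest and the limma difference was 0.66 ± 0.16 (SE), adjusted p = 0.046. For *Sdha*, the flavoprotein that oxidises succinate, the levels were 7.89 and 7.63 in E14.5 neurons, 7.68 and 7.58 in E13.5 neurons, 7.24 and 7.29 on the mdDA arrays and 7.19 and 7.22 on the lateral arrays. They did not overlap between sorted and dissected samples either, and the limma difference of 0.43 ± 0.11 (SE), adjusted p = 0.0615, was the smallest of the complex.

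Of the 8 complex III genes, 5 were higher and none was lower, with a median of 0.60. *Uqcr11*, a small subunit, had the largest difference of all 76 genes. Its level was 8.76 and 8.54 in E14.5 neurons, 8.71 and 8.60 in E13.5 neurons, 7.31 and 7.34 on the mdDA arrays and 7.75 and 7.22 on the lateral arrays, so that sorted and dissected arrays were separated by 0.79. Against the mdDA domain it differed by 1.33 ± 0.17 (SE), adjusted p = 0.00863 (limma), and a second probe set of the gene by 1.04, adjusted p = 0.0137. *Uqcr10*, another small subunit, had 9.73 and 9.98 in E14.5 neurons, 9.52 and 9.55 in E13.5 neurons, 8.63 and 8.71 on the mdDA arrays and 8.79 and 8.77 on the lateral arrays. Its arrays were separated in the same way, with 1.03 ± 0.11 (SE), adjusted p = 0.00593 by limma. *Uqcrh*, the hinge protein that binds cytochrome c1, was at 10.43 and 10.14 in E14.5 neurons, 10.43 and 10.41 in E13.5 neurons, 9.39 and 9.34 on the mdDA arrays and 9.11 and 8.84 on the lateral arrays. The difference of *Uqcrh* was 0.99 ± 0.13 (SE), adjusted p = 0.00991 (limma), and its lateral arrays lay below its mdDA arrays.

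The remaining complex III genes differed less or varied more. *Uqcrq* was 8.39 and 8.46 in E14.5 neurons, 8.43 and 8.42 in E13.5 neurons, 7.81 and 7.93 on the mdDA arrays and 7.85 and 7.74 on the lateral arrays, a separation of 0.45 between sorted and dissected arrays, and differed by 0.55 ± 0.10 (SE), adjusted p = 0.023 (limma). *Uqcrc1*, a core protein, had 6.99 and 7.05 in E14.5 neurons, 6.52 and 6.86 in E13.5 neurons, 6.21 and 6.47 on the mdDA arrays and 6.32 and 6.56 on the lateral arrays. Its E13.5 replicate 1 lay below a lateral array but above both mdDA arrays, and its limma difference was 0.51 ± 0.15 (SE), adjusted p = 0.0832. The other core protein, *Uqcrc2*, differed by 0.36 ± 0.14 (SE), adjusted p = 0.15, and *Uqcrfs1*, the Rieske iron-sulphur protein, by 0.25 ± 0.12 (SE), adjusted p = 0.249, neither called by limma. *Uqcrb* varied most, with 9.27 and 8.38 in E14.5 neurons, 7.76 and 8.15 in E13.5 neurons, 7.43 and 8.06 on the mdDA arrays and 7.66 and 7.68 on the lateral arrays. E13.5 replicate 1 of *Uqcrb* overlapped with the mdDA arrays, and the limma difference was 0.65 ± 0.29 (SE), adjusted p = 0.211. Of its other probe sets 1 was called, with a difference of 1.07 and an adjusted p of 0.0538, and 1 was not, with 0.46 and 0.261.

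**Figure D3:**
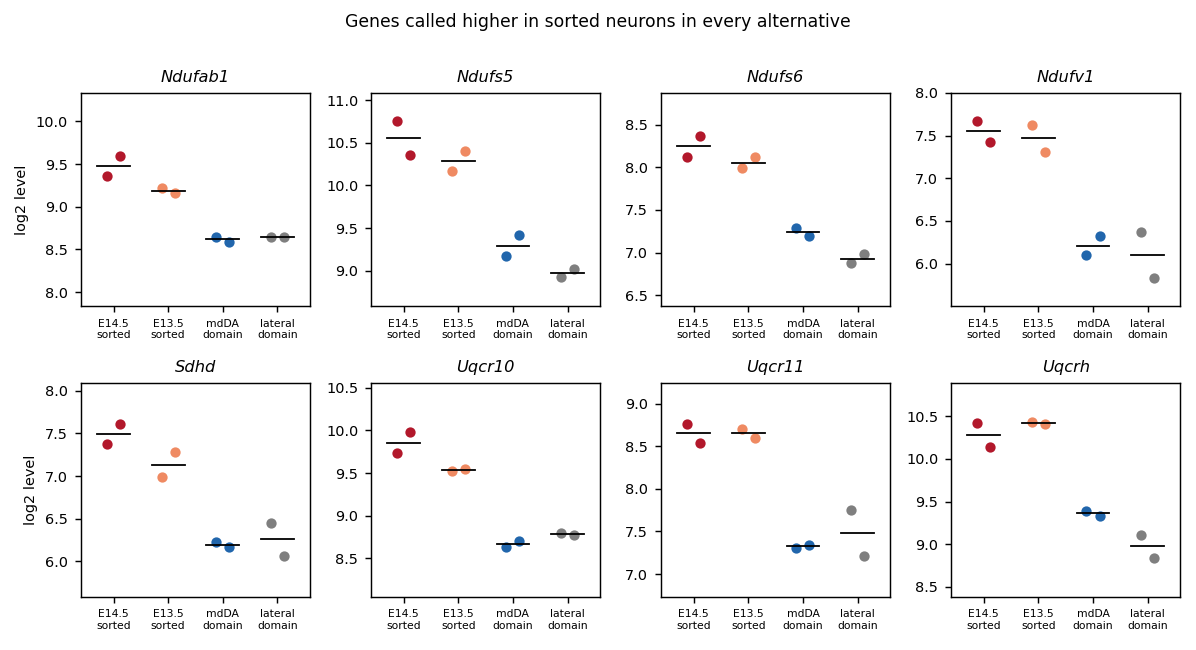
Log2 levels on each array (points) and group means (lines) of the 8 genes that were called higher in sorted neurons under every alternative processing, for E14.5 and E13.5 sorted neurons, the mdDA domain and the lateral domain. The vertical axes all span the same range of log2 units. In each gene the 4 sorted arrays lie above the 4 dissected arrays, and the dissected groups lie closer to each other than to the sorted groups.

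Complex IV was mixed, with 6 of 17 genes higher, 1 lower and a median difference of 0.19. The 7 differences below 0 were those of *Cox7a2l* (-0.01) and of tissue isoforms at lower levels than their common partners. These isoforms were *Cox6a2*, *Cox6b2*, *Cox7a1*, *Cox7b2*, *Cox8b* and *Cox8c*, so the median of the complex takes in both kinds. *Cox7a2* had 8.59 and 9.16 in E14.5 neurons, 8.80 and 8.95 in E13.5 neurons, 7.90 and 8.42 on the mdDA arrays and 7.99 and 8.07 on the lateral arrays. Its arrays were spread by 0.52 within the mdDA domain and 0.57 at E14.5 but did not overlap between sorted and dissected samples, and the limma difference was 0.72 ± 0.21 (SE), adjusted p = 0.0819. *Cox5a*, a matrix-side subunit, was at 9.90 and 10.02 in E14.5 neurons, 9.96 and 9.71 in E13.5 neurons, 9.11 and 9.30 on the mdDA arrays and 9.21 and 9.10 on the lateral arrays. Here the arrays of a group lay closer together, and the limma difference was 0.70 ± 0.13 (SE), adjusted p = 0.0209. *Cox7b* had 10.38 and 10.36 in E14.5 neurons, 10.15 and 10.25 in E13.5 neurons, 9.43 and 9.78 on the mdDA arrays and 9.41 and 9.49 on the lateral arrays, with a limma difference of 0.68 ± 0.13 (SE), adjusted p = 0.0243. A second probe set of *Cox7b* differed by 0.34 and did not pass the test (limma, adjusted p = 0.203). *Cox6b1*, *Cox8a* and *Cox5b* were higher by 0.57, 0.63 and 0.55.

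Several complex IV subunits exist as a common isoform and one known from particular tissues. None of these tissue isoforms was called higher, against 8.53% of all probe sets. At that share few calls would fall among so few genes, and all had a mean level below 7, where calls were rarer. *Cox6b1* had 11.17 and 11.17 in E14.5 neurons, 11.22 and 11.12 in E13.5 neurons, 10.64 and 10.56 on the mdDA arrays and 10.38 and 10.35 on the lateral arrays, and the arrays of a group differed by at most 0.10. Its testis isoform *Cox6b2* was the only gene called lower, with 4.48 and 4.19 in E14.5 neurons, 4.61 and 4.72 in E13.5 neurons, 5.01 and 5.11 on the mdDA arrays and 5.01 and 5.07 on the lateral arrays. The sorted arrays of *Cox6b2* lay below all dissected arrays and the limma difference was -0.56 ± 0.12 (SE), adjusted p = 0.0355, at levels close to the array medians. *Cox8a* had 9.58 and 9.88 in E14.5 neurons, 9.30 and 9.55 in E13.5 neurons, 8.86 and 9.03 on the mdDA arrays and 8.98 and 8.79 on the lateral arrays, while the isoforms *Cox8b* and *Cox8c*, known from muscle and testis, differed by -0.29 and -0.52 without passing the test, each with 1 mdDA array far above the other. *Cox4i1* was 10.14 and 9.50 in E14.5 neurons, 9.77 and 9.39 in E13.5 neurons, 8.99 and 9.16 on the mdDA arrays and 8.74 and 8.92 on the lateral arrays. All its sorted arrays were higher than the dissected ones, but it was not called (limma, 0.62 ± 0.21 (SE), adjusted p = 0.116). The lung isoform *Cox4i2* lay between 4.25 and 4.83 on all arrays, *Cox7b2*, known from testis, between 2.84 and 3.35, and the muscle isoforms *Cox6a2* and *Cox7a1* between 5.25 and 5.65 and between 4.67 and 5.59. None of these passed the test. *Cox6a1*, the common partner of *Cox6a2*, was 11.25 and 11.28 in E14.5 neurons, 11.29 and 11.002 in E13.5 neurons, 11.05 and 11.16 on the mdDA arrays and 10.85 and 10.93 on the lateral arrays, and differed by only 0.10 ± 0.12 (SE), adjusted p = 0.628 (limma). *Cox7a2l*, which takes part in joining complexes III and IV, differed by -0.01. *Ndufa4* differed by 0.30 and its hypoxia-inducible relative *Ndufa4l2* by -0.10, and neither passed the test.

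**Figure D4:**
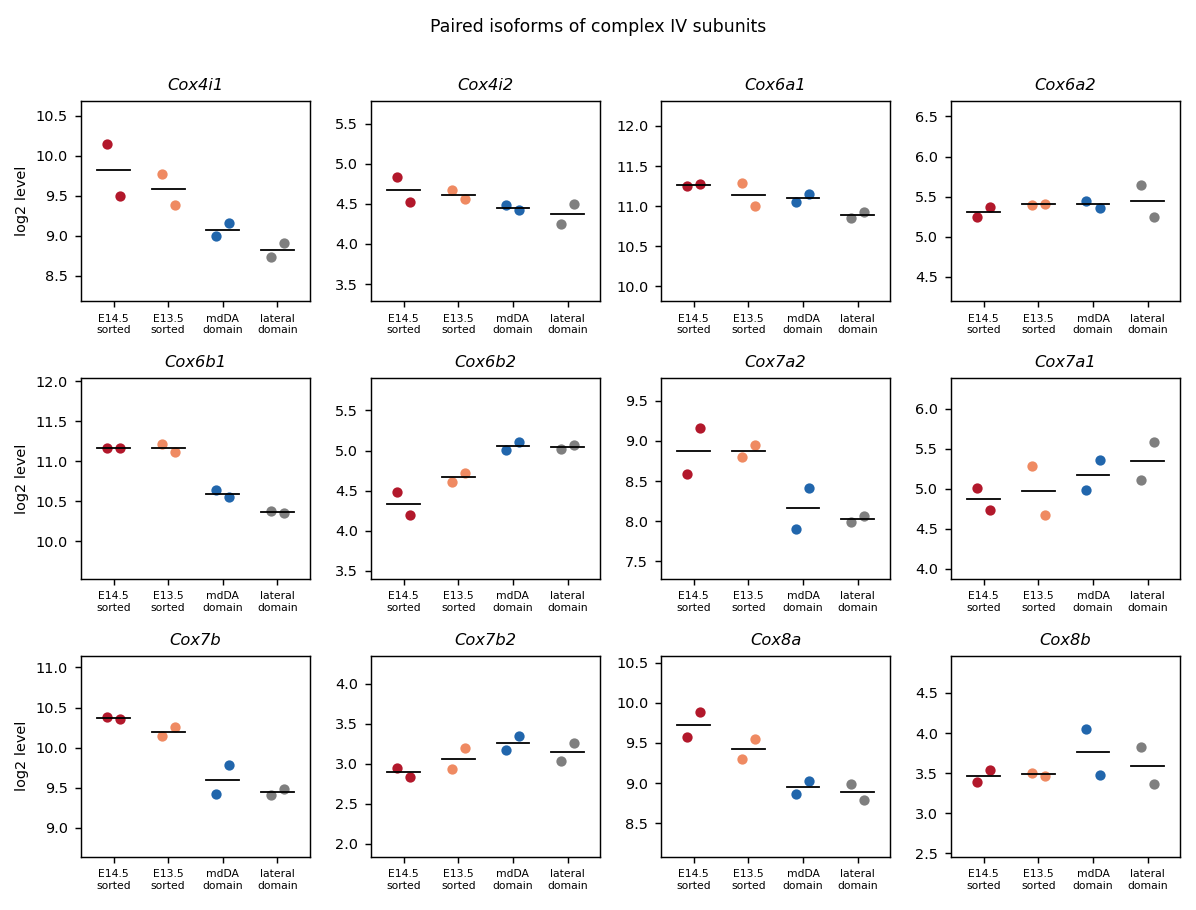
Log2 levels on each array (points) and group means (lines) of 12 complex IV genes, each common isoform followed by its tissue isoform, in E14.5 and E13.5 sorted neurons, the mdDA domain and the lateral domain. The vertical axes have different origins but the same span in log2 units. *Cox4i1*, *Cox6b1*, *Cox7a2*, *Cox7b* and *Cox8a* are higher on all 4 sorted arrays than on any dissected array, as is *Cox4i2* by a margin of 0.03, *Cox6b2* is lower, and *Cox6a1* and *Cox6a2* show no separation.

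These calls depended on the scaling and on the mdDA arrays. Centring each array on its median moved the median of all probe sets by 0.20 and gave 49 genes higher and 0 lower, with 15.7% of all probe sets higher. Of the 53 bright genes 77.4% were then higher, against 43.3% of bright probe sets. Repeating the quantile normalization over the 8 arrays moved it by 0.10 and gave 20 higher and 0 lower, with 7.3% of all probe sets higher. The shares were here 32.1% of the 53 bright genes and 16.7% of bright probe sets. The median difference was then 0.34 over the 53 bright genes and -0.003 over bright probe sets, against 0.55 and 0.17 as deposited. Relative to the median of all probe sets the 76 genes differed by 0.50 as deposited and after centring and by 0.28 after the repeated normalization. Without mdDA replicate 1, 10 genes were higher, and without mdDA replicate 2, 19, with 2.67% and 3.73% of all probe sets. Of complex II, 1 subunit of 4 was called in either case. The genes that kept their call under all 19 alternatives were *Ndufab1*, *Ndufs5*, *Ndufs6*, *Ndufv1*, *Sdhd*, *Uqcr10*, *Uqcr11* and *Uqcrh*.

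A paired limma test over the 4 dissected arrays set the mdDA domain against the lateral domain, to ask whether the genes differed between the WNT/b-catenin-responding domain and the control region. None of the 76 genes was higher and none was lower, against 1.52% higher and 1.1% lower among all probe sets. At an unadjusted p below 0.05 there was 1 gene, and 13.7% of all probe sets. The median difference was 0.06 over the 76 genes and -0.01 over all probe sets. The arrays of the mdDA domain lay above those of the lateral domain in 21 genes (27.6%) and below in 5, against 20.4% and 23.3% of all probe sets. The standard error of a difference was between 0.15 and 0.33, and differences of up to 0.67 on the log2 scale were not called, so that differences of this size could be missed with 2 arrays per domain.

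The gene with an unadjusted p below 0.05 was *Ndufb3*, an accessory subunit in the membrane arm. Its level was 5.45 and 5.40 on the mdDA arrays and 5.15 and 4.37 on the lateral arrays, and lateral replicate 2 lay far below the other 3 arrays. The difference of 0.67 ± 0.23 (SE), adjusted p = 0.334 (limma) was the largest of the 76 genes. Without lateral replicate 2 it was 0.27. In a test limited to probe sets with 1 gene symbol, its adjusted p was 0.0400 and it was the only one of the 76 genes called higher, whereas 6.16% of all probe sets in that test were higher. *Uqcrh* had 9.39 and 9.34 on the mdDA arrays and 9.11 and 8.84 on the lateral arrays, with a difference of 0.39 ± 0.15 (SE), adjusted p = 0.405 (limma), and *Ndufs6* 7.29 and 7.20 on the mdDA arrays and 6.88 and 6.98 on the lateral arrays, with 0.32 ± 0.15 (SE), adjusted p = 0.496 (limma). Both genes were higher on the mdDA arrays without overlap but did not pass the test. The lowest values were those of *Ndufs1*, -0.26, *Ndufa12*, -0.20, and *Sdhc*, -0.20. By complex the medians were 0.09 for complex I, -0.02 for complex II, -0.03 for complex III and 0.09 for complex IV. In the same comparison 9 of 11 mdDA markers were higher, all 8 lateral and GABAergic markers lower and 4 of 7 progenitor and cell division markers lower. Among all probe sets 1.52% were higher and 1.1% lower.

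The stages of the sorted neurons, E14.5 and E13.5, were compared by limma on their own 4 arrays, both groups having been isolated in the same way. No probe set passed the test (0% higher and 0% lower), and 6.06% had an unadjusted p below 0.05, among them 2 of the 76 genes. Of the 76 genes, 59 were above 0, against 50.8% of all probe sets, and the median difference was 0.15, against 0.00 over all probe sets. E14.5 arrays lay above E13.5 arrays in 29 genes (38.2%) and below in 6, against 18% of all probe sets each way. By complex the medians were 0.19 for complex I, 0.21 for complex II, 0.12 for complex III and 0.04 for complex IV. The genes were not tested as a group, and none passed the adjusted test.

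The genes at the ends were *Uqcrb*, at 9.27 and 8.38 in E14.5 neurons and 7.76 and 8.15 in E13.5 neurons, and *Sdhaf1*, an assembly factor for the iron-sulphur subunit of complex II, at 6.49 and 6.86 in E14.5 neurons and 7.21 and 7.14 in E13.5 neurons. Both pairs of groups were without overlap, but *Uqcrb* arrays differed by 0.90 within E14.5. The limma differences were 0.87 ± 0.36 (SE), adjusted p = 0.842 for *Uqcrb* and -0.50 ± 0.18 (SE), adjusted p = 0.82 for *Sdhaf1*. *Ndufb6*, which with *Sdhaf1* had an unadjusted p below 0.05, was at 8.88 and 8.77 in E14.5 neurons and 8.45 and 8.10 in E13.5 neurons, with 0.54 ± 0.18 (SE), adjusted p = 0.799 (limma). *Uqcr11* and *Cox7a2*, both called higher in sorted neurons, differed between the stages by 0.00 and 0.00. The second probe set of *Uqcr11* differed by 0.23 and was not called.

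Genes of neighbouring steps were counted in the comparison of sorted neurons with the mdDA domain, from lists that take in whole pathways or families. In that test 8.53% of all probe sets were higher and 9.84% lower, and of bright probe sets 27.4% and 9.9%. Among ATP synthase subunits 12 of 14 were higher and none lower, with a median of 0.66. *Atp5a1* and *Atp5b*, which form the catalytic head, were higher by 1.10 ± 0.12 (SE), adjusted p = 0.00618, and by 1.01 ± 0.12 (SE), adjusted p = 0.00675 (limma). None of 8 other genes of complex III and cytochrome c was called by limma, 2 having an unadjusted p below 0.05. These were *Cyc1*, cytochrome c1, with -0.02, *Cycs*, cytochrome c, with 0.03, and factors that help to build or maintain complex III. The factors were *Uqcc1*, *Uqcc2*, *Uqcc3*, *Bcs1l*, *Ttc19* and *Lyrm7*, with differences between -0.11 (*Lyrm7*) and 0.42 (*Uqcc2*). Among complex IV assembly factors 1 of 14 (7.14%) was higher, near the share of all probe sets. It was *Coa3*, higher by 0.89 ± 0.18 (SE), adjusted p = 0.0285 (limma). In the citric acid cycle and pyruvate dehydrogenase 5 of 15 genes were higher, led by *Idh3b*, a subunit of isocitrate dehydrogenase (1.02), and *Mdh2*, malate dehydrogenase (0.86). Of glycolysis genes 9 of 14 were higher, with *Aldoc* (1.36) and *Eno2* (0.99), enzymes known from brain, showing the largest differences.

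Other genes of the mitochondrion gave 32 of 77 mitochondrial ribosomal proteins higher and 0 lower, with a median of 0.43, and 9 of 25 genes of mitochondrial protein import higher and 1 lower. Cytosolic ribosomal proteins, of which 12 of 55 were higher and 2 lower, had a median of 0.19. None of 13 regulators of mitochondrial biogenesis was called by limma, 2 having an unadjusted p below 0.05, both higher. The median of the 13 was 0.01, with 7 above and 6 below 0. They ran from *Tfb1m*, -0.43, to *Tfam*, 0.59, and *Tfb2m*, 0.62. The genes of the factors whose motifs are shown above, *Nrf1* and *Gabpa*, differed by -0.03 and -0.16, and *Ppargc1a*, their coactivator, by 0.22. These 3 were picked out after their values had been seen. Of 12 hypoxia-inducible genes *Ankrd37* was higher (0.79) and *Slc2a1*, the glucose transporter GLUT1, and *Kdm3a* were lower (-1.04 and -0.77). That is 8.33% higher and 16.7% lower, against 8.53% and 9.84% of all probe sets. In the mdDA domain against the lateral domain, only *Pfkp*, a phosphofructokinase, was called among all these lists, higher by 1.84 ± 0.15 (SE), adjusted p = 0.0445 (limma). Between E14.5 and E13.5 neurons none was called.

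**Figure D5:**
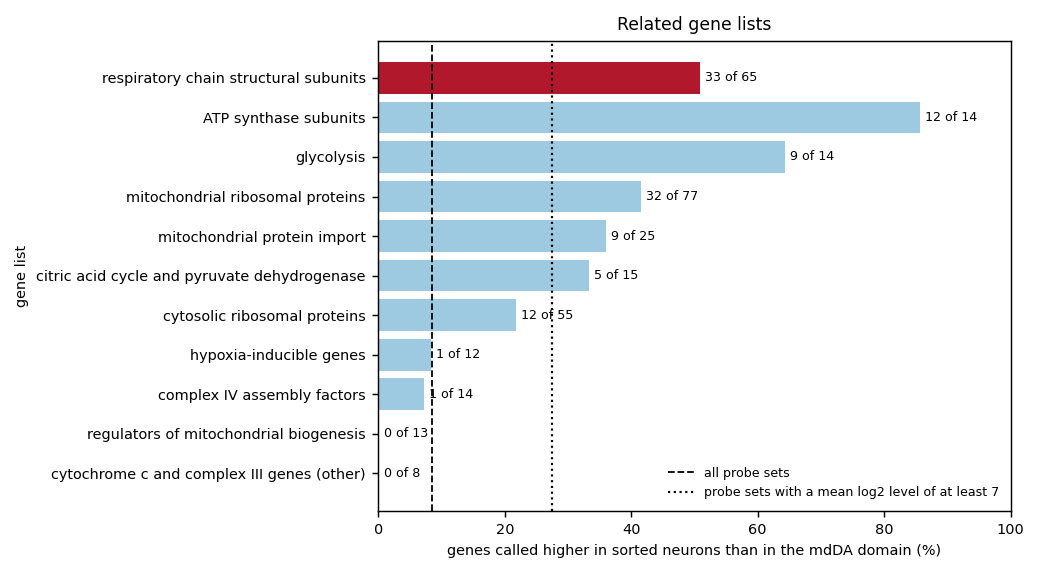
Share of the genes of each list that were called higher in sorted neurons than in the mdDA domain (bars, in percent, with counts beside them). The dashed line is the share among all probe sets, 8.53%, and the dotted line that among probe sets with a mean log2 level of at least 7, 27.4%. Subunits of ATP synthase and the respiratory chain, glycolysis, mitochondrial ribosomal proteins, protein import and the citric acid cycle lie above both lines. Regulators of mitochondrial biogenesis lie at 0. So does the list of cytochrome c and other complex III genes, which are mostly factors that build or maintain the complex.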

How the data were processed

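The authors deposited gene-level log2 values per probe set (Affymetrix Mouse Gene ST), obtained with RMA in Affymetrix Expression Console 1.2. RMA corrects the background, normalizes the arrays and summarizes the probes. As deposited, the sorted and dissected arrays still differed in median and spread. RNA of the dissected tissue had been isolated from fixed sections and amplified. The genome build was not given in the sources used here. The log2 values were used as deposited, without a filter, and no detection level was set. The number of arrays limits the precision.

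Groups and replicate numbers came from the sample labels. Of 35556 probe sets, 21789 had 1 gene symbol, 1621 several and 12146 none in the platform annotation, and only the first were named. All 76 genes matched the reference annotation. Tests used limma 3.58.1 in R 4.3.3 with default empirical Bayes settings, two-sided, adjusted by Benjamini-Hochberg over all probe sets, with calls at a false discovery rate below 10%. The mdDA and lateral domains were compared with the replicate number as a block, since the methods name a paired test without defining the pairs. The other comparisons had no block. Named genes were the up to 3 largest differences in each direction per complex among called genes without overlap, all genes of complexes II and III, the isoform families and up to 2 called genes per direction of each related list. Others, such as the genes stable under all alternatives, were named after their values were seen. The members, the gene lists and the tests were chosen with earlier results of these data known. The tests were checked on simulated data.

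Alternatives were centring on array medians, repeated quantile normalization, dropping dim probe sets, fits with or without the block or with other arrays, limma's options for trend and robustness, a 5% threshold, a minimum 1.5-fold change, only probe sets with 1 symbol, the lowest probe set per gene, structural subunits only and leaving out each array. The split of the sorted stages and the bright background were added after the data were seen. Tables and figures were made with matplotlib 3.10.9, numpy 2.4.6 and pandas 2.3.3 in Python 3.11.15.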

Additional observations from a re-analysis of the deposited data

How the results depend on the processing

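Between sorted neurons and the mdDA domain, 34 genes were higher and 1 lower. The count higher was 20 for E13.5 neurons alone (6.27% of all probe sets higher), 20 after repeated quantile normalization, and between 10 (without mdDA replicate 1) and 33 when 1 array was left out. The lone mdDA array is then assumed to vary like the other groups. It stayed within 1.5 times of 34 under the other alternatives. *Cox6b2* was not called (0 lower) after centring on array medians, after repeated quantile normalization, for E13.5 neurons alone and at a 1.5-fold change, for E14.5 neurons alone 2 genes were lower (*Cox6b2* and *Sdhaf1*, with 7.37% of all probe sets lower), and leaving out 1 array gave 0 to 1. The median of 0.43 was 0.62 after centring, 0.30 after repeated quantile normalization, 0.52 for E14.5 neurons alone and 0.35 to 0.51 when 1 array was left out. With a replicate block 32 genes were higher, and between the domains the fit without the block also made 0 calls. Same-numbered arrays did not deviate together (r between -0.04 and 0.01), and the arrays shared only a number. No difference of the 35 called genes changed sign. Between the domains the paired fit made 0 calls, and testing only probe sets with 1 symbol gave 1 higher of the 76, with 6.16% of all probe sets higher. Their median of 0.06 lay between -0.01 and 0.11 when 1 array was left out. Between E14.5 and E13.5 neurons the median of 0.15 was 0.17 with the filter on dim probe sets, 0.13 after repeated quantile normalization, 0.16 with the lowest probe set per gene, 0.14 with structural subunits only and 0.11 to 0.16 when 1 array was left out. The causes were not tested. With 2 technical replicates per group, small differences and the spread between embryos could not be measured.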
